A study of Mus musculus with 4 samples.

Results

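Macrophages without Batf2 and wild-type macrophages were compared 3 h after lipopolysaccharide (LPS), a molecule of the bacterial outer membrane that is sensed through Toll-like receptor 4. Every gene with an expression of at least 1 FPKM in either library was described. FPKM is a read density, counted per kilobase of transcript and per 1000000 mapped reads. Of 24086 gene symbols in the tables, 9821 met this limit and form the comparison, which rests on 1 library of wild-type cells (WT) and 1 of Batf2-/- cells (KO). Bone marrow of C57BL/6 mice was grown into macrophages for 6 days with the growth factor GM-CSF at 10 ng/ml, of which the adherent cells were kept. Per the labels, cultures of both genotypes were given interferon-gamma (10 ng/ml, 4 h) and LPS (100 ng/ml), and their RNA was taken at 0 h or at 3 h of LPS. The 0 h libraries, again 1 of each genotype, are used below to show which differences were already there before LPS. At 0 h the interferon-induced genes Cxcl9 and Gbp5 were low, at 0.62 and 3.52 FPKM in WT and 0.12 and 2.55 in KO. At 3 h they had 1248 and 867 FPKM in WT and 1058 and 893 in KO. How far interferon-gamma had acted by 0 h was not tested, and its part in the step from 0 h to 3 h cannot be told apart from that of LPS. Before LPS therefore means at 0 h below. Whether the whole body or 1 lineage lacked Batf2, how the allele was made, the age of the mice and whether marrow was pooled are details that the sources used here do not give.

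Batf2 encodes a small basic leucine zipper protein of the BATF family. BATF proteins lack a transactivation domain of their own. They bind DNA as dimers with Jun proteins, at AP-1 sites, and together with the interferon regulatory factors IRF4 or IRF8 at joined AP-1 and IRF sites. Batf2 is itself known as a gene induced by interferon and LPS in macrophages, and interferon-gamma with LPS is the classical stimulus for proinflammatory activation of these cells.

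With a single library in each group there is no test, no p-value and no standard error in what follows. The intervals given are the deposited 95% limits, centred on the FPKM with their relative width kept. They cover the counting and assignment of reads within 1 library and leave out the variation between cultures. A gene is called higher or lower when the difference in log2(FPKM + 1) was 1 or more in size (2-fold) and the intervals of the 2 libraries did not overlap. Differences are KO minus WT in log2(FPKM + 1), where the added 1 shrinks the change of weakly expressed genes, and folds are plain ratios of FPKM. The WT library at 3 h was the shallowest of the 4, with an estimated 20.3 reads (in units of 1000000), and the KO library at 3 h the deepest, with 30.7. In bulk RNA, fewer cells of a type and less RNA per cell cannot be told apart.

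Batf2 itself, on chromosome 19 at 6164458 to 6172475 (GRCm38), had 2.62 FPKM in WT and 0.26 in KO at 0 h, and 234 in WT and 10.1 in KO at 3 h. The KO library was thus the lower one at both times. At 3 h it held 4.30% of the WT level, a 23.2-fold difference (interval 20.5 to 26.3). The labels do not say which exons were removed, so the part of the gene behind the remaining reads was not analysed here.

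Most genes lay close to each other in the 2 libraries. The median difference was -0.07, and the middle 50% of genes lay between -0.20 and 0.06. A difference under 0.25 in size was found for 72.4% of genes and one under 0.5 for 91.8%. Counting alone separated many more genes than the size rule did. Intervals were apart for 948 genes in the higher direction (9.65%) and for 1779 in the lower (18.1%), and 65.6% of all genes were at least slightly lower in KO. With the size rule, 74 genes were called higher (0.753%) and 70 lower (0.713%). A value of 0 in 1 of the libraries was behind 17 higher calls and 18 lower calls. Such a 0 can be a failed estimate, and Capzb, which codes for an actin-capping protein that most cells make, was among them. The other 57 and 52 genes had reads in both libraries. Of the 74 genes, 67 were protein coding and 4 were long noncoding, against 63 and 3 of the 70. Tspan17 (-1.01) lay just inside the size rule on the lower side and Qpct (-0.996) just outside it. At the limit of 1 FPKM, Klrb1a (1.0003) was just inside and Rpl3l (0.9996) just outside.

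**Figure D1:**
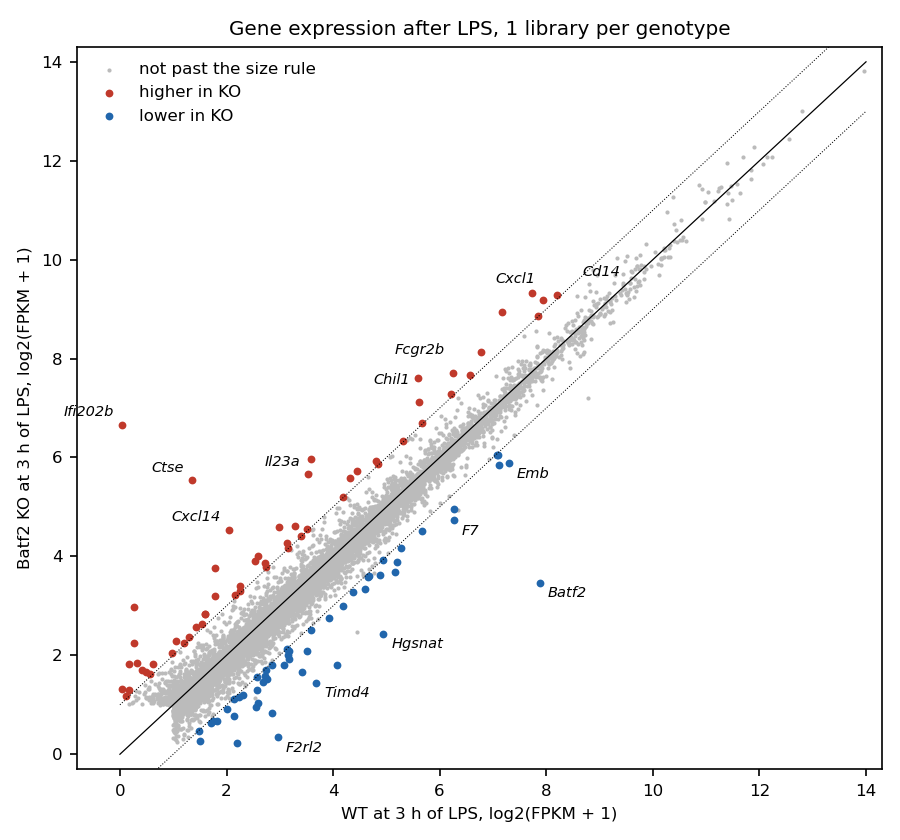
Expression in the WT library (horizontal) and the KO library (vertical) at 3 h of LPS, each as log2(FPKM + 1), for 9747 genes above 0 in both; the 74 genes listed at 0 in either are not drawn. Each point is a gene, red for the 57 called higher in KO, blue for the 52 called lower and grey for the rest; the solid line marks equal values and the dotted lines a difference of 1. Most points hug the solid line, and Batf2 and Ifi202b stand farthest from it.

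The 9821 genes were also read by level. Among genes with a mean under 2 FPKM 2.71% were called, against 1.01% of those from 5 to 10 and 1.59% of those from 200 to 1000. None of the 54 genes at 1000 FPKM or more was called. This top group holds lysozyme Lyz2, with 16015 FPKM in WT and 14415 in KO, the chemokine Ccl3, with 3802 and 4932, and beta-2 microglobulin B2m, with 4819 and 4309.

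The highest differences among genes with an FPKM of at least 5 were found in genes of unlike function. Ifi202b is an interferon-inducible DNA-binding protein of the Ifi200 family and is known for expression that varies between inbred mouse strains. It was listed at 0 in WT and had 0.02 FPKM in KO at 0 h, and had 0.03 in WT and 100.5 in KO at 3 h. Only the KO library after LPS thus held it at an appreciable level, and its difference of 6.62 was the largest among the called genes. Ctse, the aspartic protease cathepsin E, had 1.22 and 21.4 FPKM in WT and KO at 0 h and 1.56 and 45.7 at 3 h. KO was 29.3-fold higher at 3 h (22.1 to 38.9) and 17.5-fold higher at 0 h, so that the Ctse gap was there before LPS. Majin, a protein known from the attachment of telomeres to the nuclear envelope in meiosis, was under 0.20 FPKM in the other 3 libraries and had 6.91 in KO at 3 h. Its start lies 19.95 kb from that of Batf2. Of the 192 genes measured within 10 Mb of Batf2, Majin was the 1 called higher. Mrpl49 and Tm7sf2 were called lower there, both because the KO library lists them at 0. The share called in this window was 1.56%, close to that of all genes, of which 0.753% were called higher and 0.713% lower.

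Il23a codes for the p19 chain of interleukin-23, a cytokine that sustains interleukin-17-producing T cells. It had under 0.1 FPKM at 0 h in both genotypes, and 10.6 in WT and 49.8 in KO at 3 h. At 3 h KO was 4.69-fold higher (3.94 to 5.57), and before LPS the gene was too low for a comparison. Il12b, the p40 chain that p19 pairs with, had 1867 FPKM in WT and 2916 in KO, a difference of 0.64 that was not called. The p35 chain Il12a had 60.5 and 68.5 FPKM. Of the receptor chains, Il23r had 2.78 FPKM in WT and 3.86 in KO, and Il12rb1, which both receptors share, had 2.27 and 1.67. Il23a was the 1 called member among the 9 measured chains and receptors of this cytokine family. The shares called among all genes were 0.753% higher and 0.713% lower.

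Lif and Csf3 also encode secreted cytokines. Lif, leukemia inhibitory factor of the interleukin-6 family, had 0.35 and 1.54 FPKM in WT and KO at 0 h and 4.81 and 13.96 at 3 h, 2.904-fold higher in KO after LPS (2.53 to 3.33). Csf3, the granulocyte growth factor G-CSF, was under 1 FPKM at 0 h and had 2.01 in WT and 6.11 in KO at 3 h. In the interleukin-6 family, the ligands Clcf1 (13.2 and 26.9 FPKM), Osm (3.78 and 6.75) and Il6 (826 and 1052) were higher in KO without being called. The receptor chains Il6ra, Il6st and Osmr differed by -0.13, -0.01 and 0.25. The family's median over 7 members was 0.35, beside -0.07 for all genes. In the interleukin-1 family, Il1a, Il1b, the receptor antagonist Il1rn and Il1f9 differed by 0.50 to 0.56, and Il33 was lower, at 4.78 FPKM in WT and 2.59 in KO. None of its 11 measured members was called, beside 0.753% called higher and 0.713% called lower among all genes.

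Neutrophil-attracting CXC chemokines were read as 1 group with the platelet chemokine Pf4. Every measured member was higher in KO, 6 of 6, and 2 were called, Cxcl1 and Pf4. Among all genes 34.4% were higher and 0.753% were called higher. The median difference of the 6 was 0.82 at 3 h. At 0 h, where Cxcl1 and Cxcl5 were under 1 FPKM, that of the other 4 was 0.996. Cxcl1 was under 1 FPKM in both genotypes at 0 h and had 246 in WT and 579.6 in KO at 3 h, 2.36-fold higher (2.25 to 2.48). Pf4, platelet factor 4, had 121 and 259.7 FPKM in WT and KO at 0 h and 108 and 282 at 3 h, and so differed to a like degree at both times. Cxcl2, the most abundant of the group, had 2012 FPKM in WT and 2281 in KO at 3 h and differed by 0.18. Pf4 and Ppbp, another member of this group, are also platelet genes. Of 11 erythroid and megakaryocyte markers 3 were measured, Pf4, Ppbp and Itga2b, and Klf1 and Car1 were listed at 0 in both libraries at 3 h. Summed over that list, WT held 122.0 FPKM and KO 306.1 at 3 h, most of it from Pf4 itself. The sum therefore largely restates the Pf4 difference. Apart from Pf4, Ppbp differed by 0.92 and Itga2b, with 1.44 FPKM in WT and 1.63 in KO, by 0.11. The part of platelet-lineage RNA in the Pf4 difference was not tested.

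Chemokines of the CC family were higher for 9 of 12 members, with a median of 0.27 and none called. For all genes 34.4% were higher, and 0.753% were called higher. Ccl4 had 1224 FPKM in WT and 1986 in KO, and Ccl12 had 63.8 and 113. Of those that draw activated T cells, Cxcl9 (1248 FPKM in WT, 1058 in KO) and Cxcl10 (1945 and 1801) were slightly lower, and Cxcl11, the third ligand of their receptor, had 12.2 and 12.5. Cxcl14 encodes a chemokine that is made by epithelia and stroma in most tissues. It had 2.41 and 21.1 FPKM in WT and KO at 0 h and 3.13 and 22.3 at 3 h, so that the KO level was 7.13-fold higher after LPS (5.59 to 9.10) and differed before it as well.

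Among the 15 genes with the lowest differences, those of clotting, uptake of dead cells and lysosomal breakdown were found. F2rl2 is the thrombin receptor PAR3. It had 23.8 and 8.72 FPKM in WT and KO at 0 h and 6.79 and 0.27 at 3 h. After LPS KO was 24.8-fold lower (16.2 to 38.1), and it was called lower before LPS too. F7, clotting factor VII, had 119.9 and 84.6 FPKM at 0 h and 75.6 and 25.5 at 3 h, 2.96-fold lower in KO after LPS. The clotting list did not move as a whole. Its median over 14 members was 0.22, and tissue factor F3 (67.3 FPKM in WT, 109 in KO) and factor X F10 (447 and 723) were higher without being called.

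Timd4 is a receptor for phosphatidylserine, through which macrophages take up dying cells. It was under 0.20 FPKM in both genotypes at 0 h and had 11.9 in WT and 1.73 in KO at 3 h, 6.88-fold lower in KO (5.30 to 8.94). Clec9a, a receptor by which dendritic cells sense dead cells, had 3.71 and 1.59 FPKM in WT and KO at 0 h and 9.68 and 2.16 at 3 h. Other receptors and bridging proteins of this uptake were not called. Mertk had 76.4 FPKM in WT and 96.2 in KO, Axl 179 and 151 and the bridging protein Mfge8 254 in both. Clec9a is also a dendritic cell marker. Markers of those cells summed to 3942 FPKM in WT and 3492 in KO at 3 h, and at 0 h the sums were 4824 and 2825. Most of each sum came from the chemokine Ccl17, with 2881 and 2354 FPKM at 3 h and 4348 and 2553 at 0 h. Of the 10 markers measured at 3 h, 6 were lower and 4 higher in KO. Among the latter, Ccr7 had 18.2 FPKM in WT and 35.2 in KO. The part of dendritic cells in the Clec9a difference was not tested.

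Hgsnat, an enzyme of heparan sulfate breakdown in lysosomes, had 60.9 and 55.9 FPKM in WT and KO at 0 h and 29.7 and 4.42 at 3 h. The genotypes were thus close before LPS, and KO was 6.72-fold lower after it (5.82 to 7.76). Naaa, a lysosomal hydrolase of fatty acid ethanolamides, had 306 and 220.1 FPKM at 0 h and 137 and 56.7 at 3 h. Of 22 measured cathepsins and lysosomal hydrolases 14 were lower, beside 65.6% of all genes. Their median of -0.05 turned positive when KO was rescaled by the median ratio. Intervals were apart for 10 in the lower direction and for 5 in the higher, against 18.1% and 9.65% of all genes. By the size rule 0.713% of all genes were called lower and 0.753% higher. Of this list Ctse and the protease inhibitor Cst7 (26.9 and 60.2 FPKM at 3 h) were called higher and Hgsnat lower, and the abundant Ctsd (2709 FPKM in WT, 2596 in KO) and Ctsz (1346 and 1334) differed little.

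Pdcd1lg2, the inhibitory ligand PD-L2, had 28.7 and 14.5 FPKM in WT and KO at 0 h and 35.8 and 13.7 at 3 h. Its paralogue PD-L1, Cd274, had 412 FPKM in WT and 424 in KO at 3 h. The 2 ligands of the same receptor therefore differed in unlike ways, -1.32 against 0.04. Fcgr2b, the inhibitory receptor for immunoglobulin G, had 267 and 284 FPKM in WT and KO at 0 h and 74.8 and 208 at 3 h. The activating receptors of this family were not called, with Fcgr1 (42.8 FPKM in WT, 34.5 in KO), Fcgr3 (394 and 396) and Fcgr4 (46.4 and 35.4) all measured.

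**Figure D2:**
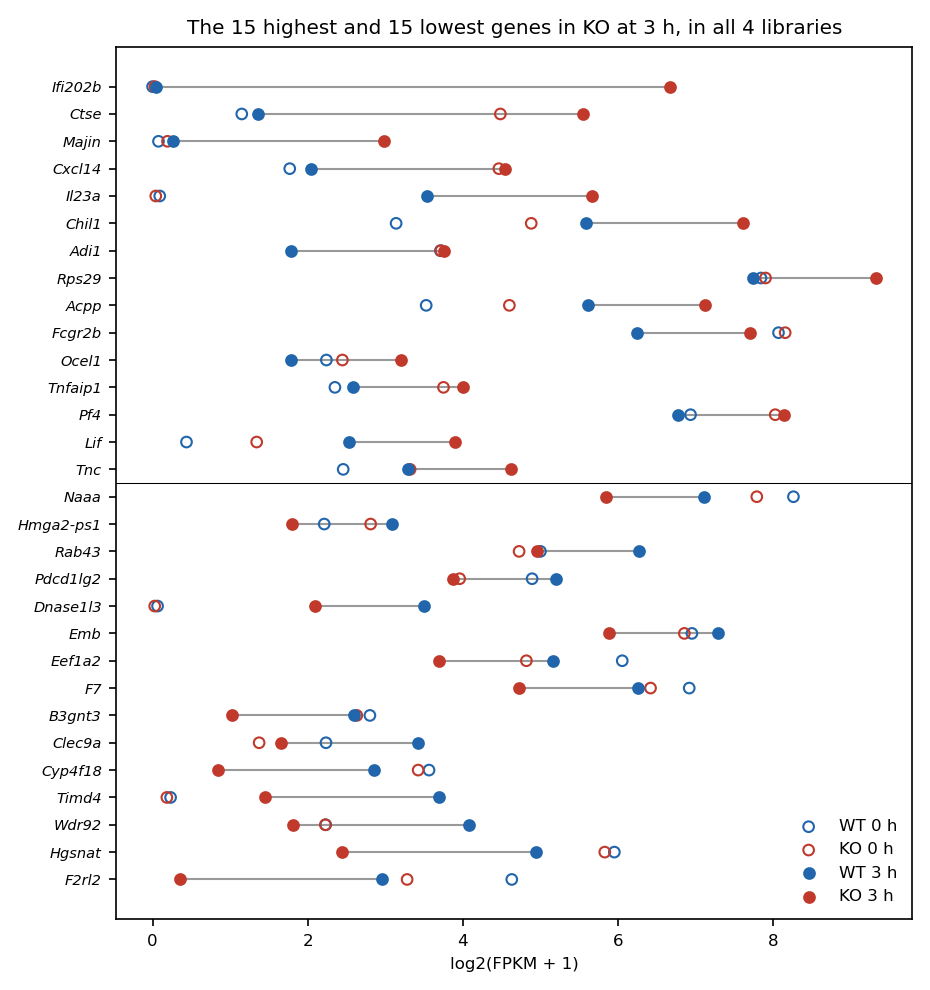
The 15 genes called highest (upper panel) and lowest (lower panel) in KO at 3 h among those with at least 5 FPKM in the higher library, Batf2 left out, as log2(FPKM + 1) in each of the 4 libraries. Open circles are 0 h and filled circles 3 h, blue is WT and red is KO, and the grey line joins the 3 h libraries. For Ctse, Cxcl14 and Pf4 the open circles are apart as well, and for Il23a, Hgsnat and Timd4 they lie close together.

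Several of the remaining genes at the ends of the ranking have roles outside immunity. On the higher side were Adi1, an enzyme of the methionine salvage pathway (2.44 FPKM in WT, 12.5 in KO at 3 h), and Acpp, a secreted acid phosphatase (47.9 and 138). Chil1, a chitinase-like glycoprotein, had 47.3 and 195 FPKM, and Tnc, the matrix protein tenascin C, had 8.79 and 23.6. Rps29 codes for a ribosomal protein with many near-identical copies in the genome, and its 213 against 639.6 FPKM are uncertain for that reason. The 19 ribosomal protein genes of the list had a median of -0.05, which turned positive with the same rescaling. Ocel1 (1.43) and Tnfaip1 (1.41) completed the upper 15. On the lower side were Emb, the cell adhesion glycoprotein embigin (156 FPKM in WT, 58.1 in KO), Rab43, a small GTPase of membrane traffic (76.3 and 30.05), and Eef1a2, a translation elongation factor of muscle and neurons (34.8 and 11.9). Dnase1l3, a secreted nuclease that digests chromatin, was under 0.1 FPKM at 0 h in both genotypes and had 10.3 in WT and 3.26 in KO at 3 h. Wdr92 (-2.26), Cyp4f18 (-2.02), B3gnt3 (-1.56) and the pseudogene Hmga2-ps1 (-1.29) made up the rest.

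The letters upstream of these genes were read for the sites that BATF proteins are known to bind. RefSeq promoter sequences (GRCm38.p6) were matched for 7845 of the 9821 genes, and 250 bases before the start were searched on both strands. The motifs were the AP-1 site TGANTCA, the core of the interferon-stimulated response element (ISRE), which is GAAA, any 2 bases and GAAA again, and a composite of AP-1 and IRF sites. An AP-1 match was held by 5.69% of all these promoters, by 4 of 54 of the called higher genes (7.41%) and by 3 of 52 of the called lower genes (5.77%). An ISRE core was held by 3.71% of all, by 5 of 54 (9.26%) and by 3 of 52 (5.77%). The composite was found in 11 of all the promoters and in none of the called genes. Of the 30 highest and lowest genes 22 had a promoter entry, and the 3 promoters that hold a match are shown, 5′ to 3′ on the strand of the gene, with the match in capitals.

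Lif, chr11:4257318-4257567, forward strand, with an AP-1 match that begins 228 bases before the start: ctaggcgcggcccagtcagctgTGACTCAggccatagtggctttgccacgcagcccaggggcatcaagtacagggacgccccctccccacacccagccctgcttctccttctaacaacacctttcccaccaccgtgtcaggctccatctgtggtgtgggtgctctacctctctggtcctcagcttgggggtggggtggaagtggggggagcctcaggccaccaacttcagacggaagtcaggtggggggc
F2rl2, chr13:95696670-95696919, forward strand, with AP-1 matches that begin 233 and 54 bases before the start: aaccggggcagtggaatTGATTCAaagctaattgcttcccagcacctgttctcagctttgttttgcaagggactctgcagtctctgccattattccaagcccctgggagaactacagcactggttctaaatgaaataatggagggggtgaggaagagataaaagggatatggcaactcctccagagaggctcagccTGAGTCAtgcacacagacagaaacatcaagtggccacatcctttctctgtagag
Cxcl14, chr13:56296552-56296801, reverse strand, with an ISRE core that begins 172 bases before the start: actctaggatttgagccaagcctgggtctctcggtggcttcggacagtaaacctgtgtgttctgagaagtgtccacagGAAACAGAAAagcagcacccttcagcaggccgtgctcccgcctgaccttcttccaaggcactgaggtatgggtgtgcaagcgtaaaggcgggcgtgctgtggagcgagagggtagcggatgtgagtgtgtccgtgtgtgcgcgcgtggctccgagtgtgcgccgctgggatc

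Lif was higher and F2rl2 lower in KO, so that an AP-1 match stood before genes of either direction. A match describes letters only and shows no binding. No entry was matched for Batf2, Il23a, Ctse, Majin, Adi1, Rps29, Hgsnat, Dnase1l3 and Hmga2-ps1.

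Of the 13 measured AP-1 and BATF factors, Batf2 included, 5 were higher and 3 lower in KO with intervals apart, against 9.65% and 18.1% of all genes. Batf had 21.2 FPKM in WT and 28.5 in KO at 3 h, and Batf3 had 10.6 and 7.44. Jdp2, a repressor that dimerises with Jun proteins, had 13.3 and 25.04 FPKM, and Fosl2 had 21.8 and 30.01. Junb, the most abundant Jun transcript measured, had 264 and 282 FPKM, and Irf4 and Irf8 had 11.4 and 10.6, and 403 and 323. Fos had 11.5 and 14.8 FPKM in WT and KO at 0 h and 6.27 and 2.50 at 3 h and was called lower, a call that ended when the KO library was rescaled by the median ratio. Besides Batf2, Fos was the 1 called member among 13 AP-1 and BATF factors, and none of 15 IRF and STAT factors was called. Calls were made for 0.753% of all genes in the higher direction and for 0.713% in the lower.

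Interferon-induced groups were read against all genes, of which 65.6% were lower, and 50.4% after KO was rescaled by the median ratio. The size rule called 0.753% of all genes higher and 0.713% lower. Of 22 antiviral genes, 19 were higher in KO and 3 lower, with a median of 0.20. Intervals were apart in the higher direction for 15 of them, against 9.65% of all genes. The radical-SAM enzyme Rsad2 (viperin) had 468 FPKM in WT and 890.0 in KO, and Cmpk2, a nucleotide kinase that is its neighbour in the genome, had 189.5 and 353. Isg15, a ubiquitin-like modifier, had 379.7 and 483 FPKM. No antiviral gene was called, and after rescaling all 22 were higher. MHC class I and peptide loading genes were all lower, 13 of 13, by 0.02 to 0.21, with a median of -0.14 and none called. After rescaling 10 of the 13 were lower. Of the guanylate-binding and immunity-related GTPases, which act on vacuoles that hold pathogens, 10 of 13 were lower (8 after rescaling) and none was called. Intervals were apart for 8 in the lower direction and for 3 in the higher, against 18.1% and 9.65% of all genes. Their median was -0.15 at 3 h and -0.33 over 11 members at 0 h. Gbp2 had 2688 FPKM in WT and 2236 in KO at 3 h. The Ifi200 family was split. Ifi202b was the 1 member that was higher and called, and the other 7 were lower (6 after rescaling), among them Ifi205 (348 and 225 FPKM) and Mndal (383 and 274). Members of this family are alike in sequence, so that reads may be split between them.

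The LPS receptor complex was not uniform either. Cd14, the co-receptor that hands LPS to Toll-like receptor 4, had 36.9 and 33.9 FPKM in WT and KO at 0 h and 294 and 625 at 3 h, 2.12-fold higher in KO after LPS (2.06 to 2.19). Tlr4 itself had 15.1 FPKM in WT and 12.6 in KO at 3 h, and its partner Ly96 had 27.4 and 22.6. Cd180 and Ly86, which form a related complex that dampens this receptor, had 88.3 and 49.1, and 59.4 and 44.8 FPKM. Of 18 genes on this list, 8 were higher and 6 lower with intervals apart, against 9.65% and 18.1% of all genes. Cd14 was the 1 that was called, beside 0.753% of all genes called higher and 0.713% called lower, and the list median was 0.12.

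Lipid genes were lower as a group. All 26 measured genes of cholesterol and fatty acid synthesis were lower in KO, with a median of -0.49. Intervals were apart for 22 of them, against 18.1% of all genes in this direction. At 0 h the median was -0.42 over 27 measured members. After rescaling at 3 h 25 of the 26 were lower. Scd1, the desaturase that makes oleate, had 19.7 and 8.14 FPKM in WT and KO at 0 h and 5.58 and 2.01 at 3 h, and was called at both times. Scd2, a second desaturase, had 24.6 FPKM in WT and 12.4 in KO at 3 h. Idi1, of the mevalonate pathway, had 38.4 and 26.6 and Sqle, squalene epoxidase, 11.7 and 7.01. Tm7sf2 was also called, from 4.10 FPKM in WT and a listed 0 in KO. The regulator Srebf2 had 41.2 and 34.6 FPKM. The group was thus lower with and without LPS, and its median at 3 h stood at -0.49 beside -0.07 for all genes. Of 11 targets of the sterol receptor LXR and genes of cholesterol efflux, 8 were lower and 3 higher. Abcg1, an exporter of cholesterol, had 89.4 and 75.2 FPKM in WT and KO at 0 h and 19.8 and 8.68 at 3 h and was called lower, whereas Apoe had 222 and 375 at 3 h and Abca1 8.60 and 11.8. Vdr, the vitamin D receptor, was called lower, with 5.74 FPKM in WT and 1.88 in KO.

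**Figure D3:**
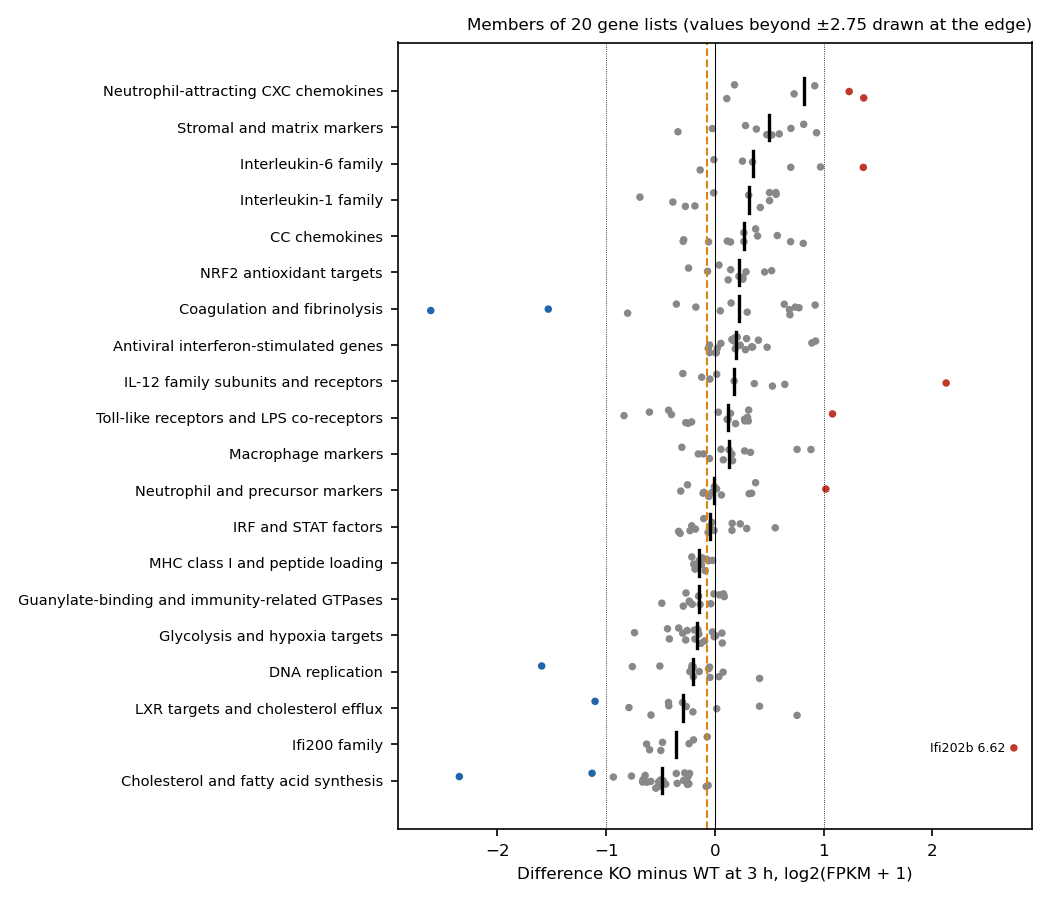
Difference KO minus WT at 3 h, in log2(FPKM + 1), for every measured member of 20 gene lists. Each point is a gene, red or blue when called higher or lower and grey otherwise; the black bar is the list median and the dashed orange line the median of all 9821 genes, -0.07. All points of cholesterol and fatty acid synthesis and of MHC class I lie below 0 (after rescaling by the median ratio 25 of 26 and 10 of 13 do). Those of the neutrophil-attracting chemokines, a list that includes Pf4, lie above it.

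Of all 65 lists, 63 had at least 3 measured members, and 33 of their medians were above 0 and 30 below. No member was called in 37 lists. The lists held 705 distinct measured genes, of which 17 were called higher and 17 lower. Among all 9821 genes 0.753% were called higher and 0.713% lower, and the lists were chosen with earlier results of these data known. Over all genes 65.6% were lower in KO, and 50.4% after rescaling by the median ratio. Beside these shares, glycolysis and hypoxia genes were lower for 16 of 19 (14 after rescaling), with a median of -0.16. Intervals were apart for 12 of them in the lower direction and for 1 in the higher, against 18.1% and 9.65% of all genes. At 0 h their median was 0.16 over 20 members. DNA replication genes were lower for 12 of 15 (9 after rescaling), with a median of -0.20, and intervals were apart for 3 in the lower direction and for 1 in the higher. Of the DNA replication genes, Ccne2 was called from 2.02 FPKM in WT and a listed 0 in KO. NRF2 antioxidant targets were higher for 9 of 11, with a median of 0.22. The TNF superfamily (median 0.06 over 18) and the mitochondrial respiratory chain and citric acid cycle (-0.08 over 18) lay near the median of all genes. Of the metalloproteinases and their inhibitors, 10 of 13 were higher, and Mmp8 (50.1 FPKM in WT, 103 in KO) and the inhibitor Timp1 (94.0 and 203) were called.

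Markers of other cell types were read beside these groups and beside all genes, of which 0.753% were called higher and 0.713% lower. The macrophage markers summed to 18058 FPKM in WT and 16781 in KO, most of it from Lyz2. Without Lyz2 the sums were 2043 and 2366. Of the 13 members 9 were higher in KO, with a median of 0.13 and none called, and Adgre1, the antigen F4/80, had 43.9 and 81.9. Stromal and matrix markers were higher for 8 of 10, with a median of 0.50 at 3 h and of 0.94 over 11 members at 0 h, and Lum and Pdgfra were under 1 FPKM in both libraries at 3 h. The list summed to 204.4 FPKM in WT and 209.8 in KO at 3 h, of which Fn1, lower in KO, gave 141 and 112, and to 223.5 and 305.9 at 0 h. Sparc had 11.3 FPKM in WT and 22.5 in KO at 3 h, and Bgn 20.1 and 30.8. Tnc, Cxcl14, Lox and Myl9 are also known from stromal cells, and Lox (5.63 and 13.6 FPKM at 3 h) and Myl9 (2.02 and 6.10) were higher at both times. The part of stromal RNA in these differences was not tested. Neutrophil markers summed to 5833 FPKM in WT and 5604 in KO at 3 h, with a median of -0.00 whose sign turned with rescaling, although they had summed to 3758 and 9250 at 0 h, with a median of 0.97 over 14 members. Mmp8 was the neutrophil marker called at 3 h.

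Of the mast cell, basophil and eosinophil markers, Prg2 (24.6 FPKM in WT, 11.1 in KO) and Epx (5.45 and 1.75), both eosinophil granule proteins, were called lower. At 0 h both were higher in KO, with 22.3 FPKM in WT and 30.9 in KO for Prg2 and 3.66 and 5.81 for Epx. Gata2, a transcription factor of mast cells and progenitors, was called higher, from 0.34 FPKM in WT to 2.24 in KO. The list of 12 summed to 46.5 FPKM in WT and 37.0 in KO, of which Prg2 gave 24.6 and 11.1. Of its 7 measured members 4 were higher in KO and 3 lower. Their median of 0.15 changed sign with a filter of 5 FPKM. Hdc was among the higher, with 10.8 FPKM in WT and 16.9 in KO. Mcpt4 and Cma1 were listed at 0 in both, and the share of such cells in the calls above was not tested. No B cell marker reached 1 FPKM, and 2 markers of T and NK cells did, Cd4 (2.60 and 1.94) and Lck (1.12 and 1.12).

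The calls at 3 h were then compared with those at 0 h, which rest on other libraries. At 0 h 144 genes were called higher (1.33%) and 42 lower (0.387%) of 10856. Of the 74 genes called higher at 3 h, 20 were called higher at 0 h too, which is 27.0% of the 74 and 13.9% of the 144. Of the 70 called lower, 7 were called lower before LPS, 10% of the 70 and 16.7% of the 42. The shared higher genes include Ctse, Cxcl14, Chil1, Acpp, Tnfaip1, Pf4, Alas1, Lox, Myl9 and Rps2, a ribosomal protein gene that is uncertain in the way of Rps29, and the shared lower ones are Batf2, F2rl2, Eef1a2, Scd1, Hebp2, Ogfod3 and Rpain. Alas1, the first enzyme of heme synthesis, had 227 and 499 FPKM in WT and KO at 0 h and 229 and 466 at 3 h, so that the gap was of like size at both times. For 52 of the 57 higher genes with reads in both 3 h libraries there were reads in both 0 h libraries. Of these 52, 44 were higher in KO at 0 h as well. The median of the 52 was 0.46 at 0 h and 1.24 at 3 h, beside -0.0003 for all genes at 0 h. For the lower genes 42 of 51 kept the direction, with a median over the 51 of -0.26 at 0 h and -1.23 at 3 h. Of the 52 and of the 51, 19 each differed by under 0.25 in size at 0 h. Genes under 1 FPKM in both 0 h libraries, such as Il23a, are counted here. The 3 h medians follow from the size rule that chose the called genes and are given for scale only.

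**Figure D4:**
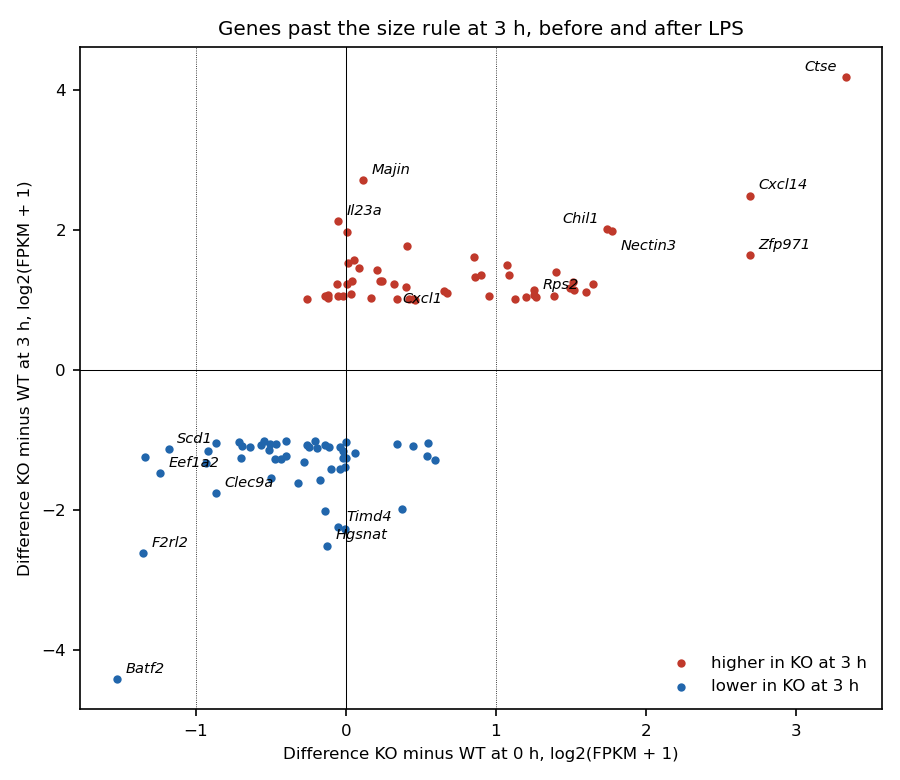
Difference KO minus WT at 0 h (horizontal) against that at 3 h (vertical), both in log2(FPKM + 1), for the 103 genes called at 3 h with reads in all 4 libraries. Red points were called higher and blue points lower in KO at 3 h, and dotted lines mark a difference of 1 at 0 h. Ctse and Cxcl14 lie far to the right, Batf2 and F2rl2 to the left, and Majin, Il23a, Timd4 and Hgsnat near 0 on the horizontal axis.

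Among the genes called higher at 3 h, 13 were under 1 FPKM in both libraries at 0 h. Csf3, Cxcl1, Il23a, Ifi202b and Majin were described above. The others, named here after their values were seen, include the acute phase protein Saa1 (3.76 FPKM in WT, 8.90 in KO), the interleukin-36 cytokine Il1f6 (3.78 and 9.52), the amino acid oxidase Il4i1 (27.8 and 57.8) and the serine protease Htra4 (20.8 and 51.8). Il1bos, which lies antisense to Il1b, is also one of them, and whether reads were counted by strand is not given in the sources used here. On the lower side 4 genes were under that limit before LPS, Timd4, Dnase1l3, Gpr33 and Plagl1. Gpr33, an orphan receptor of the chemoattractant receptor group, had 3.43 FPKM in WT and 0.71 in KO at 3 h, and Plagl1, a zinc finger protein of an imprinted locus, had 3.58 and 0.17.

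A further 3 lower genes, chosen in the same way, were raised from 0 h to 3 h in both genotypes and were lower in KO after LPS. Fgl2, a fibrinogen-like protein of macrophages, had 13.3 and 9.09 FPKM in WT and KO at 0 h and 136 and 65.1 at 3 h. Gatm, which makes the precursor of creatine, had 42.0 and 22.6 at 0 h and 134 and 65.0 at 3 h. Cd200, a ligand that restrains myeloid cells, had 5.68 and 5.19 at 0 h and 37.6 and 17.1 at 3 h. WT cells at 3 h enter both the LPS difference and the genotype difference, so the 2 are not independent.

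Some called genes are neighbours. Gm14325, Gm14326 and Zfp971 on chromosome 2, zinc finger genes within 107.0 kb of the next, were all higher in KO. Zfp971 had 0.32 and 7.54 FPKM in WT and KO at 0 h and 0.13 and 2.54 at 3 h. Genes of this family resemble each other closely, so that reads may be shared between them. Pf4 and Cxcl1 have starts 118.8 kb apart on chromosome 5. Cd14 on chromosome 18 starts 53.91 kb from Apbb3 and 10.01 kb from Tmco6. Both of these neighbours were also called higher, each with 1 library listed at 0. On chromosome 10, H60b was higher and C920009B18Rik, 33.2 kb away, was lower. By chromosome, the highest share of called genes was that of chromosome 8, with 6 higher and 10 lower among 539 (2.97%), which include Hgsnat, F7, Cyp4f18, B3gnt3 and Ocel1. Over all chromosomes 0.753% of genes were called higher and 0.713% lower.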

How the data were processed

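RNA from 4 cultures, 1 library each, was sequenced as strand-specific single reads, per the labels. The authors deposited tables of FPKM by RefSeq transcript, with lower and upper limits and a status. Per the submitters' processing notes, TopHat2, Bowtie, SAMtools and Cufflinks were used with mm9, in versions not given in the sources used here. Positions in the tables fit GRCm38, and genes are placed on that build. Entries took their symbol from RefSeq accessions (33437), from the GENCODE M21 RefSeq table (187) or from position (109), and 108 kept their accession. H2-D1 and Il12b were named by position. FPKM of entries with status OK was summed per symbol (Python 3.11.15, pandas 2.3.3). Depth was estimated from entries with a single read, as 24.8, 28.0, 20.3 and 30.7 (in units of 1000000 reads) for WT and KO at 0 h and WT and KO at 3 h, and sets the interval widths.

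Alternatives were other pseudocounts, filters, sizes, intervals and scalings. Genes named in the text were Batf2, the 15 highest and 15 lowest called genes with at least 5 FPKM and above 0 in both libraries (no unnamed models or small RNAs), called members and up to 4 abundant members of each list, the 10 most abundant genes and genes of at least 5 FPKM called at both times. Other names were chosen after their values were seen. The comparison, the 65 gene lists and the rules were chosen with earlier results of these data known. Some genes that this rule names are left out of the text.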

Additional observations from a re-analysis of the deposited data

Results flagged for a closer look

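Akr1b3, Capzb and Plpp1 were called in opposite directions before and after LPS, a difference between the 2 times that was not tested. At 3 h they differed by 1.81, 4.91 and -1.16 on the log2(FPKM + 1) scale. Each was listed at 0 in at least 1 of the 4 libraries. Capzb had 49.0 FPKM in WT and a listed 0 in KO at 0 h, and a listed 0 in WT and 29.0 in KO at 3 h. Plpp1 was listed at 0 in WT at 0 h and had 6.89 FPKM in KO, and had 14.2 and 5.79 at 3 h.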

How the results depend on the processing

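With 1 library per group, the spread between cultures is unknown, and depth limits genes near 1 FPKM. Against 74 higher and 70 lower genes, a pseudocount of 0.1 gave 136 and 146, one of 5 gave 29 and 18, a filter at 5 FPKM 48 and 41, genes with a single entry 52 and 46, and a difference of at least 1.5 30 and 24. Without genes listed at 0 there were 57 and 52. With KO rescaled by 1.06 there were 84 and 59, which is 58.7% higher calls in place of 51.4%. Of 56 named genes, 32 kept their call in every setting that could give a value, and none reversed. Genes listed at 0, such as Capzb, have no value where such genes are left out. Genes with more than 1 entry have none in the setting of a single entry. The other 24 lost it with a pseudocount of 5: Ocel1, Tnfaip1, Lif, Cyp4f18, B3gnt3, Dnase1l3, Hmga2-ps1, Abcg1, Ccne2, Csf3, Epx, Fos, Gata2, Hamp, Mmp8, Ocstamp, Prg2, Scd1, Tm7sf2, Trem1, Vdr, Lox, Myl9 and Plpp1. Rescaling also ended the calls of Fos and Ocstamp. Of 63 list medians 45 kept their sign; those of AP-1 and BATF factors, IRF and STAT factors, and the TNF superfamily did not. No paired analysis was possible because each genotype has 1 library at each time.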
